A study of Mus musculus with 15 samples.

Results

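The genes described here encode the MHC molecules of the mouse, which display peptides to T cells, and the machinery that supplies them with peptides. They were chosen by name as all non-control probes of the array named with the prefix H2- together with B2m, Tap1, Tap2, Tapbp, Psmb8, Psmb9, Psmb10, Cd74, Ciita, Nlrc5, Erap1 and Cd1d1. The rule gave 69 of the 55681 probes, and these measured 51 of the 24335 genes with a symbol. Of the 51 genes, 38 belonged to the class I pathway and 12 to the class II pathway. The remaining gene, H2-Ke6, lies in the H2 region but encodes a hydroxysteroid dehydrogenase.

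RNA of 15 tumors from a study of iron metabolism in murine liver cancer was hybridised to 1-colour arrays, with 1 array per tumor. The p53f/f HCC group held 5 hepatocellular carcinomas of 4 mice with floxed and undeleted Trp53 alleles, and mouse 3717 gave 2 of them. The p53LKO HCC group held 5 hepatocellular carcinomas of 5 mice with a liver-specific Trp53 deletion, and the p53LKO ICC group held 1 tumor labelled ICC, commonly short for intrahepatic cholangiocarcinoma, from each of 5 such mice. All mice received CCl4, a hepatotoxin, at 0.5 µl per g of body weight intraperitoneally, every 3 days according to the labels, over 16 weeks. Per the study's text the mice had a C57/BL6J background, and male mice are stated for the HCC arrays but not for the ICC. The promoter that drove the deletion is not given in the sources used here, and the ages the study's text states are not tied to these arrays. The HCC and the ICC of the p53LKO mice overlapped in origin, because 4 mice gave 1 tumor of each kind. RNA came from whole tumor tissue, so fewer cells of a type and less RNA per cell cannot be told apart.

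Class I molecules consist of a heavy chain and the light chain beta-2-microglobulin, and nearly every nucleated cell carries them. Their peptides come from proteins of the cell itself. The proteasome cuts these proteins, the TAP transporter carries the pieces into the endoplasmic reticulum, and tapasin helps to load them. Class II molecules are made mainly by dendritic cells, B cells and macrophages, where the invariant chain Cd74 guards the groove and H2-DM exchanges its peptide. Interferon gamma raises both pathways, through the transactivators Nlrc5 for class I and Ciita for class II.

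The control regions of these genes are known for a small set of shared elements, so the 250 bases before the annotated start are shown for the light chain, the classical class I heavy chains and a pair of classical class II chains, as examples of each class. The sequences are those of RefSeq on GRCm38.p6, and promoter windows were at hand for 35 of the 51 genes. They lie at chr2:122147437-122147686 on the plus strand for B2m, chr17:34000348-34000597 on the minus strand for H2-K1, chr17:35262844-35263093 on the plus strand for H2-D1, chr17:34287824-34288073 on the minus strand for H2-Aa and chr17:34305617-34305866 on the plus strand for H2-Eb1. Capitals mark matches, on either strand, to the Y box (CTGATTGG), the core of the X box (CAACNGATG), an NF-kB site (GGGATTCCC) and an interferon-stimulated response element (GAAANNGAA).
B2m: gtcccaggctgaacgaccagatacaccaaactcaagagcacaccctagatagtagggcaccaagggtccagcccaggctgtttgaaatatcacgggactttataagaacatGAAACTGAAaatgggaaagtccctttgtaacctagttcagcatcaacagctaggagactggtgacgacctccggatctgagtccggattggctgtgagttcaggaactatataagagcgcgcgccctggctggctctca
H2-K1: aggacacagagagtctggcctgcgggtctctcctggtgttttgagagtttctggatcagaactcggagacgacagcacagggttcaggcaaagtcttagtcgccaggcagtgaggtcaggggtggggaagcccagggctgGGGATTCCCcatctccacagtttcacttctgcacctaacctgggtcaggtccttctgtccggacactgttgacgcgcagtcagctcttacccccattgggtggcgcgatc
H2-D1: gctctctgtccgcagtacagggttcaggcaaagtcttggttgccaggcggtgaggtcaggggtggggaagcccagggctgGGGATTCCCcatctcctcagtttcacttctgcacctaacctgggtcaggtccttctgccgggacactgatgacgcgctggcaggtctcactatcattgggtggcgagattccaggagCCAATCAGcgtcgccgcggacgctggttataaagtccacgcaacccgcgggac
H2-Aa: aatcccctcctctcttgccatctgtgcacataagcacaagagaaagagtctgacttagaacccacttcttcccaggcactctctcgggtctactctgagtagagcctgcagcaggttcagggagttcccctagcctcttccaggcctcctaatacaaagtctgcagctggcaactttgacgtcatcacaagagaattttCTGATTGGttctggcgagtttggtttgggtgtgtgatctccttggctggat
H2-Eb1: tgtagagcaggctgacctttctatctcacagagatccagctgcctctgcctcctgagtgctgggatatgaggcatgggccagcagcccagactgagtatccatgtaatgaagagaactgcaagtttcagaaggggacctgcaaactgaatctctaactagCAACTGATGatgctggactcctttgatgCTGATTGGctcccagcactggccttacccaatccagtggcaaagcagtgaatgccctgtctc
The NF-kB letters stood in the windows of H2-K1, H2-D1 and H2-Q7 and in 0.353% of all 32851 promoter windows of 300 bases. The GAAANNGAA letters of the interferon element stood in the windows of B2m, Erap1 and H2-T23 and in 8.56% of all windows. Other forms of that element were not searched, so a window without these letters may still hold one. The Y box stood in the windows of 17 of the 35 genes, among them H2-Aa, H2-Eb1, H2-Eb2, H2-Oa, Tap1 and Psmb9, and in 4.10% of all windows. For H2-K1 its match lay past the stretch printed. The X box letters stood in the windows of 2 of the 35 genes, H2-Eb1 and H2-Eb2, and in 0.566% of all windows. A match is a description of the letters and no evidence of binding.

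The level of a gene is given throughout on a log2 scale, as its processed signal relative to the 75th percentile of the same array, read from the probe of the gene with the highest mean signal. Levels of different genes are not compared, because probes differ in brightness. Between 55.1% and 70.1% of probes were well above background on the p53f/f HCC arrays, 37.0% to 62.1% on the p53LKO HCC arrays and 42.5% to 47.0% on the ICC arrays. The arrays of p53f/f HCC all lay in the upper rows of 2 slides and those of ICC all in lower rows, while 3 p53LKO HCC lay in an upper row and those of mice 3976 and 5283 in a lower row, with 46.4% and 37.0%. The probe named Trp53, which the array files place on chromosome 17 and not at the gene itself, had levels of -1.27 to -0.68 in the p53f/f HCC, -3.86 to -2.75 in the p53LKO HCC and -4.19 to -2.31 in ICC. Whether it reads the deleted part of the gene is not known, so it is a weak check of the labels. Averaged over 12 hepatocyte genes, the level was 6.43 to 7.35 in the p53f/f HCC, 5.88 to 6.45 in the p53LKO HCC and 3.37 to 5.96 in ICC, and over 9 cholangiocyte genes it was -1.71 to 0.38, -1.85 to -0.54 and 0.70 to 1.10. The cholangiocyte level of each ICC lay above that of each HCC.

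Of the 51 genes, 37 were well above background on all 15 arrays, and 42 passed the filter for testing in every comparison, 31 of class I, 10 of class II and H2-Ke6. The 9 genes tested in no comparison were H2-M1, H2-M5, H2-M10.1, H2-M10.2, H2-M10.3, H2-M10.4, H2-M10.6, H2-DMb2 and H2-Ea-ps, and 6 of them were well above background on 0 arrays. The M10 genes are known for their use in the vomeronasal organ. H2-Ea-ps is the E alpha gene, which strains of the b haplotype do not transcribe, and it was well above background on none of the 15 arrays. By the mm9 positions of the brightest probes in the array files, 39 of the 51 genes lay on chromosome 17, the chromosome of the H2 complex, with H2-Aa at chr17:34421285-34421344 on the minus strand, H2-K1 at chr17:34133055-34133114 on the minus strand and H2-Q10 at chr17:35611449-35611508. The probe of B2m lay at chr2:121978401-121978460, that of Nlrc5 at chr8:97051105-97051164, that of Ciita at chr16:10526568-10526627 and that of Cd1d1 at chr3:86799791-86799850 on the minus strand.

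Between the HCC groups, few of these genes were called with the scaling by which levels are given. Calls were a minority among all genes too, and whether the members differ from all genes in this was not tested. Comparing p53LKO HCC with p53f/f HCC, 0 of the 42 genes were called higher and 2 were called lower, H2-Q4 of class I and H2-Eb2 of class II. A gene is called at an adjusted p under 0.05 (limma, Benjamini-Hochberg over all probes) and a fold change over 2. Over all genes tested, 5.19% were called higher and 10.8% lower. At an unadjusted p under 0.05, 9 of the 42 were higher and 6 lower, against 20.7% and 20.4% of all genes, and the methods' t-test with Benjamini-Hochberg adjustment called the same numbers, 0 and 2. With no fold limit, 3 genes passed upward (Psmb8, Psmb10 and Tapbp) and 5 downward (H2-Q4, H2-Eb2, H2-Q10, H2-T3 and H2-T24), against 13.8% and 15.7% of all genes. The median log2 fold change was 0.21 over the class I genes and 0.46 over the class II genes, beside 0.06 over all genes. Scaling changed this picture. With spike-in probes as the reference, the median of all genes moved to 0.80, 21 members were called higher and 2 lower, and with normexp background correction 2 were called higher and 1 lower.

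In ICC against HCC of p53LKO mice, 3 of the 42 genes were called higher (H2-Aa, H2-Oa and H2-Q4) and 13 lower. The 13 were B2m, H2-K2, Psmb8, Cd1d1, H2-Q10, H2-T3, H2-T9, H2-T10, H2-Bl, H2-M2, H2-M9, H2-M11 and H2-Ke6, so that 12 of the 31 class I genes and 0 of the 10 class II genes were called lower. Of these, H2-M9 was well above background on 0 of 5 ICC arrays and entered the test through the HCC alone. For H2-M2 the brightest probe was lower and the other probe higher. With the filter on all arrays of both groups, 37 genes were tested, and 2 were called higher and 12 lower. Over all genes, 13.2% were called higher and 15.2% lower. With no fold limit, 2 class I genes passed upward and 21 downward, while 6 class II genes passed upward and 0 downward, against 18.5% and 29.1% of all genes. The median was -0.88 in class I and 0.80 in class II, beside -0.17 over all genes. All 5 ICC lay below all 5 HCC in 16 class I genes and above them in 2 class II genes, H2-Oa and H2-Ob, against 19.9% of all genes below and 10.9% above. The split moved with the scaling. Quantile normalization gave 5 higher and 7 lower, and the percentile taken over probes detected on every array gave 7 and 7, with a median of all genes of 0.20. With the row as a block 2 were called higher and 18 lower, and within the lower rows alone, with 2 HCC, 2 and 16.

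In ICC of p53LKO mice against HCC of p53f/f mice, genotype, tumor type and row of the slide differed together and cannot be told apart. The 8 genes called higher were all of class II (Cd74, H2-Aa, H2-Ab1, H2-Eb1, H2-DMa, H2-DMb1, H2-Oa and Ciita), and the 12 called lower were all of class I (B2m, H2-K2, Cd1d1, H2-Q7, H2-Q10, H2-T3, H2-T9, H2-T10, H2-Bl, H2-M2, H2-M9 and H2-M11). Here too H2-M9 entered the test through the HCC alone, and the probes of H2-M2 went opposite ways. With the filter on all arrays of both groups, 39 genes were tested, and 8 were called higher and 11 lower. Over all genes, 10.8% were called higher and 11.9% lower. The median was -0.62 in class I and 1.35 in class II, beside -0.18 over all genes. With the slide as a block, 2 remained higher, H2-Aa and H2-Oa, and 10 genes were called lower. Each slide held a single array of 1 of these groups, too few for a test within a slide to bear on these calls. Spike-in scaling gave 12 higher and 4 lower, with the median of all genes at 0.57. This comparison shares its arrays with the other two, so its values are no separate evidence.

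**Figure D1:**
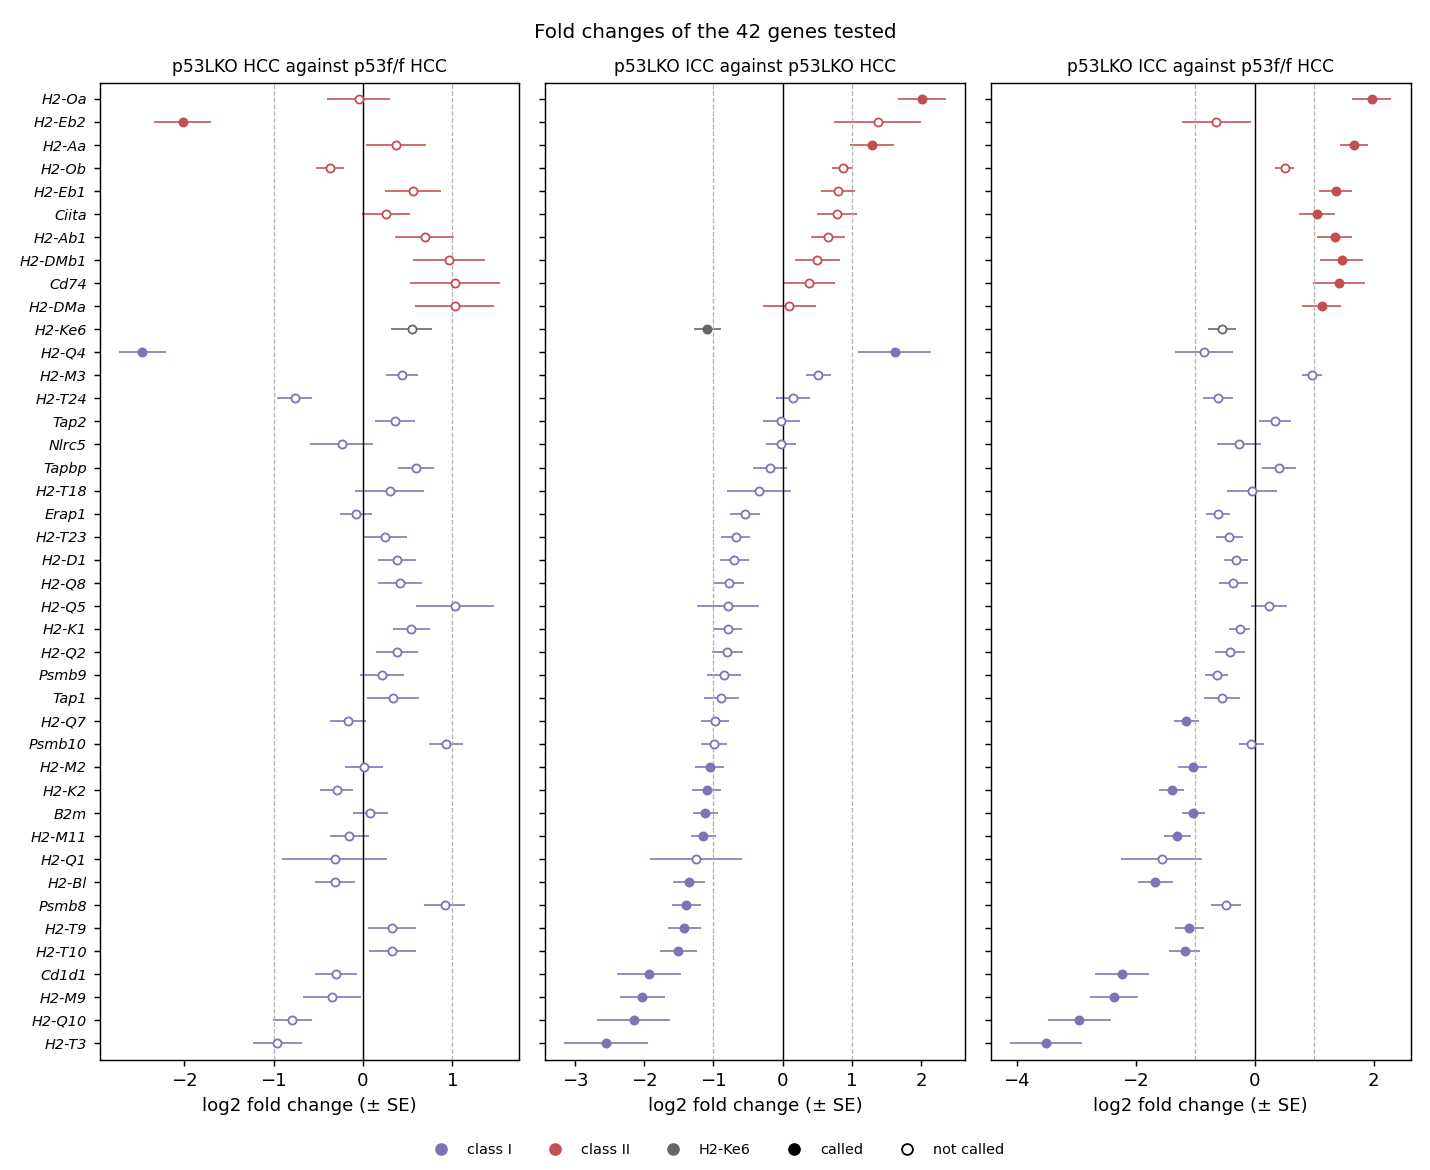
Log2 fold change (x axis, with SE) of the 42 genes tested (rows) in each of the 3 comparisons, with filled points for genes called and dashed lines at a 2-fold change. In the middle panel, ICC against HCC of p53LKO mice, 28 of the 31 class I genes lie left of 0 and all 10 class II genes lie right of it. The median of all genes there is -0.17, and 0.20 with the percentile over probes detected on every array, so places around 0 depend on the scaling.

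The light chain and the classical heavy chains were far above the 75th percentile of the array in every tumor. B2m had levels of 7.95, 8.06, 8.39, 8.55 and 8.63 in the p53f/f HCC, 8.13, 8.21, 8.33, 8.58 and 8.74 in the p53LKO HCC and 6.96, 7.10, 7.40, 7.42 and 7.51 in ICC. The HCC groups overlapped, and every ICC lay below every HCC. ICC differed from p53LKO HCC by -1.12 ± 0.18 on the log2 scale (SE, adjusted p = 0.00083 by limma, 2.17-fold lower) and from p53f/f HCC by -1.04 ± 0.19 (adjusted p = 0.0028). The fold sat near the limit, and quantile normalization brought the first value to -0.77. The second was -0.49 (adjusted p = 0.055) with quantile normalization and -0.29 (adjusted p = 0.50) with spike-in scaling, and was not called. It also fell within the 2-fold limit, at -0.99 to -0.96, without mouse 3681, the first tumor of mouse 3717 or the ICC of mouse 3733 or 5283.

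H2-K1, a classical heavy chain that presents to CD8 T cells, had levels of 7.87, 7.87, 7.89, 8.22 and 8.23 in the p53f/f HCC, 8.17, 8.25, 8.46, 8.82 and 9.08 in the p53LKO HCC and 7.45, 7.58, 7.85, 7.94 and 7.97 in ICC. ICC lay below p53LKO HCC on every array and overlapped p53f/f HCC. The difference from p53LKO HCC was -0.80 ± 0.21 (adjusted p = 0.011), within the 2-fold limit, and that from p53f/f HCC was -0.26 ± 0.17 (adjusted p = 0.26). With the row as a block the first was -1.01 (adjusted p = 0.023) and was called. Over all alternatives other than leaving out 1 tumor, it ranged from -1.19 to -0.41. H2-D1, the other classical heavy chain, had levels of 6.42, 6.67, 6.88, 7.08 and 7.19 in the p53f/f HCC, 6.79, 7.08, 7.26, 7.31 and 7.68 in the p53LKO HCC and 6.15, 6.38, 6.59, 6.65 and 6.88 in ICC. It differed by -0.70 ± 0.20 (adjusted p = 0.018) between ICC and p53LKO HCC and by -0.32 ± 0.20 (adjusted p = 0.24) between ICC and p53f/f HCC. Over the same alternatives, its difference between ICC and p53LKO HCC ranged from -1.11 to -0.24. The lower classical chains of ICC against p53LKO HCC were thus not seen past the threshold against p53f/f HCC, and under quantile or spike-in scaling the latter differences turned positive (0.32 and 0.50 for H2-K1, 0.08 and 0.43 for H2-D1). In p53LKO HCC against p53f/f HCC, H2-K1 differed by 0.54 ± 0.21 (adjusted p = 0.065) and H2-D1 by 0.38 ± 0.21 (adjusted p = 0.19). H2-K2, named for the K region of the complex, had levels of 7.28, 7.49, 7.56, 7.70 and 7.95 in the p53f/f HCC, 6.96, 7.23, 7.30, 7.42 and 7.59 in the p53LKO HCC and 5.55, 6.30, 6.35, 6.39 and 6.41 in ICC. Each ICC lay below each HCC. It was lower in ICC than in p53LKO HCC by -1.10 ± 0.21 (adjusted p = 0.0019) and than in p53f/f HCC by -1.40 ± 0.21 (adjusted p = 0.00098), and the first was -0.94, within the 2-fold limit, without the ICC of mouse 3733. The first was -0.67 by quantile normalization and the second -0.65 (adjusted p = 0.17) by spike-in scaling, neither called.

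The immunoproteasome subunits replace constitutive ones after interferon and change which peptides are cut. Psmb8 had levels of 3.096, 3.34, 3.49, 4.01 and 4.11 in the p53f/f HCC, 4.23, 4.36, 4.48, 4.76 and 4.801 in the p53LKO HCC and 2.80, 2.84, 2.94, 3.53 and 3.55 in ICC. Each p53LKO HCC lay above each p53f/f HCC and each ICC. Psmb8 rose by 0.92 ± 0.23 (adjusted p = 0.011) in p53LKO HCC against p53f/f HCC, under the 2-fold limit, and fell by 1.39 ± 0.21 (adjusted p = 0.00060, 2.63-fold) in ICC against p53LKO HCC. The rise was 1.06 (adjusted p = 0.0092) with the slide as a block, and was called. With the row as a block it was 0.84 (adjusted p = 0.044), and was not called. Psmb10 had levels of 4.76, 4.76, 4.998, 5.26 and 5.48 in the p53f/f HCC, 5.75, 5.91, 5.95, 6.005 and 6.31 in the p53LKO HCC and 4.66, 4.82, 4.83, 5.24 and 5.42 in ICC. It rose by 0.93 ± 0.19 (adjusted p = 0.0039) in p53LKO HCC, again without overlap, and ICC differed from p53LKO HCC by -0.99 ± 0.19 (adjusted p = 0.0021). Psmb9 had levels of 3.20, 3.44, 3.60, 3.65 and 3.89 in the p53f/f HCC, 3.07, 3.43, 3.97, 4.16 and 4.20 in the p53LKO HCC and 2.66, 2.82, 2.84, 2.94 and 3.33 in ICC, with overlap between all groups. For Psmb9 the difference between the HCC groups was 0.21 ± 0.25 (adjusted p = 0.54), and ICC lay lower than p53LKO HCC by -0.85 ± 0.24 (adjusted p = 0.016). With the row as a block the latter was -1.26 (adjusted p = 0.010) and was called. Over all alternatives other than leaving out 1 tumor, it ranged from -1.36 to -0.48. For Psmb8, Psmb10 and every other gene without overlap between 2 groups, the exact 2-sided permutation p was 0.00794, the smallest that 5 arrays against 5 can give.

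The transporter subunits and tapasin serve peptide transport and loading. Tapbp, which encodes tapasin, had levels of 2.96, 3.32, 3.38, 3.63 and 4.01 in the p53f/f HCC, 3.84, 4.05, 4.07, 4.15 and 4.16 in the p53LKO HCC and 3.27, 3.59, 3.66, 4.31 and 4.54 in ICC. It was higher in p53LKO HCC than in p53f/f HCC by 0.59 ± 0.20 (adjusted p = 0.042), with overlap, and not past the threshold with the row as a block (adjusted p = 0.13). Tap1 had levels of -1.08, -0.34, -0.05, 0.04 and 0.43 in the p53f/f HCC, -0.43, -0.05, 0.28, 0.35 and 0.54 in the p53LKO HCC and -1.32, -0.95, -0.80, -0.39 and -0.28 in ICC. Tap1 was lower in ICC than in p53LKO HCC by -0.88 ± 0.25 (adjusted p = 0.015). This difference was -1.06 (adjusted p = 0.042) with the row as a block, and was called. Over all alternatives other than leaving out 1 tumor, it ranged from -1.26 to -0.51. Tap2, the partner of Tap1 in the transporter, had levels of 4.08, 4.12, 4.28, 4.77 and 4.802 in the p53f/f HCC, 4.32, 4.57, 4.89, 4.91 and 5.17 in the p53LKO HCC and 4.20, 4.28, 4.73, 5.08 and 5.46 in ICC. It differed by -0.02 ± 0.27 (adjusted p = 0.95) between ICC and p53LKO HCC, and Tapbp by -0.18 ± 0.24 (adjusted p = 0.56), and these values of Tap2 and Tapbp changed sign with the scaling. Erap1, which trims peptides, ranged from -1.11 to -0.36 in p53LKO HCC and from -1.90 to -1.05 in ICC (adjusted p = 0.063). Nlrc5 had levels of 0.76, 1.32, 2.13, 2.35 and 2.83 in the p53f/f HCC, 1.31, 1.51, 1.54, 1.90 and 1.94 in the p53LKO HCC and 1.10, 1.48, 1.55, 1.91 and 2.03 in ICC. The 3 groups overlapped throughout, and ICC differed from p53LKO HCC by -0.03 ± 0.21 (adjusted p = 0.93).

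**Figure D2:**
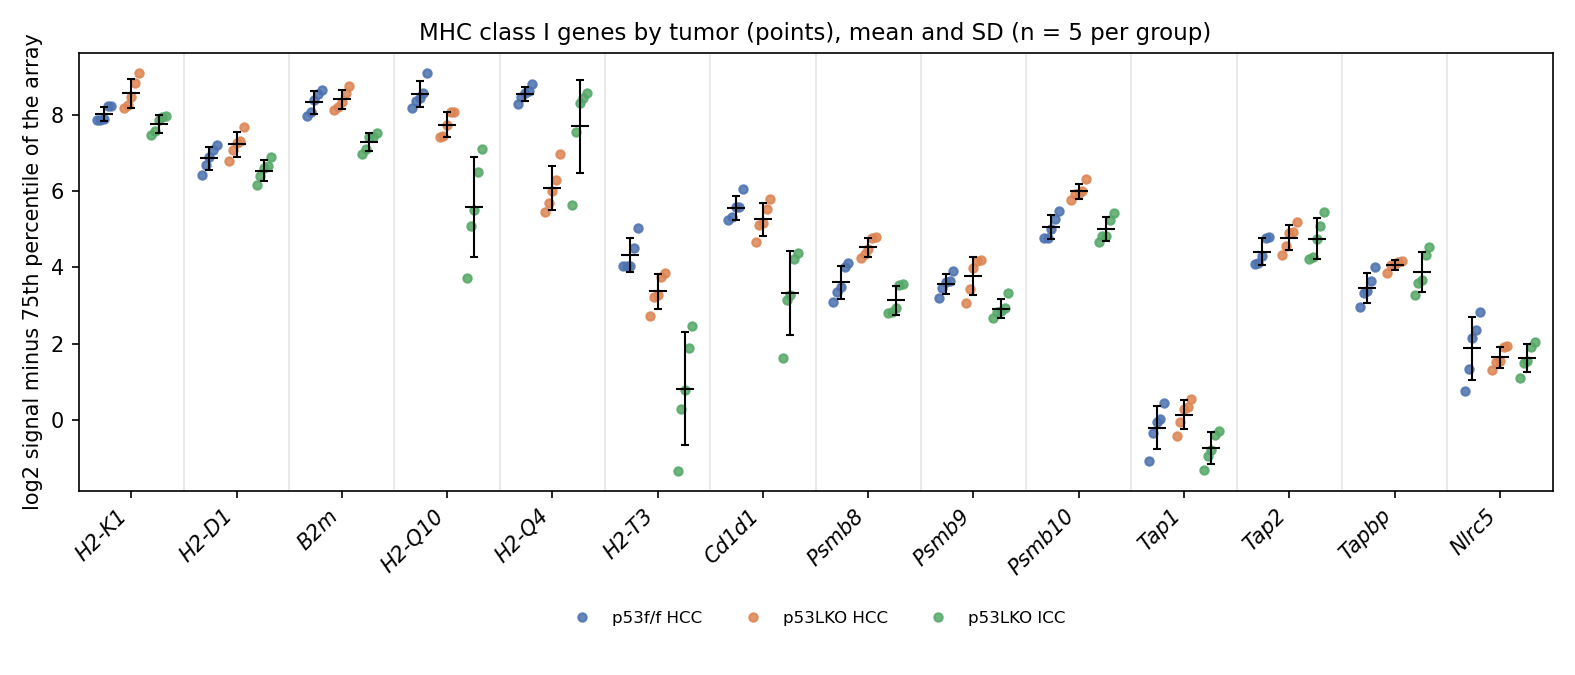
Levels of 14 class I genes in each tumor (points, log2 signal minus the 75th percentile of the array on the y axis) with mean and SD of 5 tumors per group. The ICC points of B2m and Psmb8 lie below all points of p53LKO HCC, whereas those of Tap2 and Nlrc5 overlap them.

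The largest falls among the class I genes in ICC were in nonclassical ones, which as a group are less variable between individuals and have more specialised ligands. H2-Q10 encodes a secreted class I molecule made by the liver. Its levels were 8.18, 8.35, 8.44, 8.57 and 9.09 in the p53f/f HCC, 7.41, 7.43, 7.72, 8.06 and 8.07 in the p53LKO HCC and 3.71, 5.09, 5.51, 6.49 and 7.11 in ICC. The groups stood in that order with no overlap between neighbours. It fell by 0.79 ± 0.22 (adjusted p = 0.018) in p53LKO HCC against p53f/f HCC and by 2.15 ± 0.53 (adjusted p = 0.0081, 4.45-fold) in ICC against p53LKO HCC. With the row as a block the values were -0.68 (adjusted p = 0.074) and -1.99 (adjusted p = 0.070), and by the methods' t-test the latter had an adjusted p of 0.052. A further probe of H2-Q10 gave -0.85, with an adjusted p of 0.030, and -1.84, with an adjusted p of 0.0024.

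H2-T3 encodes the thymus leukemia antigen, best known from the intestinal epithelium. It had levels of 4.02, 4.02, 4.03, 4.51 and 5.04 in the p53f/f HCC, 2.72, 3.22, 3.28, 3.75 and 3.86 in the p53LKO HCC and -1.34, 0.28, 0.78, 1.87 and 2.46 in ICC. The 3 groups did not overlap. It fell by 0.96 ± 0.27 (adjusted p = 0.021) and by 2.55 ± 0.60 (adjusted p = 0.0065), and with the row as a block the values were -0.72 (adjusted p = 0.099) and -2.19 (adjusted p = 0.073). Between the HCC groups H2-T3 was called in 8 alternatives, among them the slide as a block at -1.14 (adjusted p = 0.015), and it was not called in the other 17. Its probe shares the 22 bases TTGTGGAGGAAATAAATGGCAG with that of H2-Q10, and signal of one in the probe of the other was not tested. Cd1d1, which presents lipids to natural killer T cells, had levels of 5.24, 5.32, 5.58, 5.59 and 6.04 in the p53f/f HCC, 4.67, 5.10, 5.16, 5.53 and 5.79 in the p53LKO HCC and 1.63, 3.15, 3.27, 4.20 and 4.36 in ICC. It fell by 1.93 ± 0.46 (adjusted p = 0.0071, 3.81-fold) in ICC against p53LKO HCC, with an adjusted p of 0.065 within the lower rows alone, and its other probe gave -1.96. In H2-Q10, H2-T3 and Cd1d1 alike, the lowest ICC was that of mouse 3733, whose hepatocyte level of 3.37 was also the lowest of all tumors. The part of hepatocyte content in these falls was not tested.

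H2-Q4 went its own way. Its levels were 8.28, 8.47, 8.55, 8.61 and 8.80 in the p53f/f HCC, 5.45, 5.69, 6.001, 6.28 and 6.95 in the p53LKO HCC and 5.62, 7.54, 8.31, 8.44 and 8.56 in ICC. The p53LKO HCC lay wholly below the p53f/f HCC, while 4 of 5 ICC lay above all p53LKO HCC and the ICC of mouse 5283 lay among them. It fell by 2.47 ± 0.27 (adjusted p = 0.00013, 5.53-fold) in p53LKO HCC and was called higher in ICC than in p53LKO HCC by 1.62 ± 0.53 (adjusted p = 0.029). The second call was lost in 13 of 25 alternatives, among them leaving out the p53LKO HCC of mouse 3976, 5283 or 3731 or the ICC of mouse 3731, 3733 or 3977, with adjusted p from 0.053 to 0.068, and the row as a block, with 0.084. Of the other nonclassical genes, H2-M3, which presents bacterial formylated peptides, was higher in ICC than in p53LKO HCC by 0.52 ± 0.18 (adjusted p = 0.033) and than in p53f/f HCC by 0.96 ± 0.17 (adjusted p = 0.0021).

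A further set of nonclassical genes was lower in ICC. H2-T10, a relative of H2-T22 that binds the receptor of some gamma delta T cells, had levels of 1.60, 1.64, 2.17, 2.24 and 2.50 in the p53f/f HCC, 1.80, 2.13, 2.25, 2.61 and 2.99 in the p53LKO HCC and 0.26, 0.58, 1.01, 1.11 and 1.28 in ICC. It was lower in ICC than in p53LKO HCC by -1.51 ± 0.27 (adjusted p = 0.0014). H2-T9 had levels of 1.85, 1.94, 2.44, 2.45 and 2.995 in the p53f/f HCC, 2.23, 2.25, 2.62, 3.09 and 3.104 in the p53LKO HCC and 0.87, 1.04, 1.28, 1.30 and 1.70 in ICC. All 5 ICC were below the lowest HCC, and the difference from p53LKO HCC was -1.42 ± 0.24 (adjusted p = 0.0010). H2-Bl had levels of 3.92, 4.46, 4.60, 4.68 and 5.24 in the p53f/f HCC, 4.10, 4.18, 4.33, 4.35 and 4.38 in the p53LKO HCC and 2.04, 2.93, 3.08, 3.20 and 3.29 in ICC, a difference of -1.36 ± 0.23 (adjusted p = 0.0012). H2-M11 had levels of 1.55, 1.81, 2.22, 2.45 and 2.50 in the p53f/f HCC, 1.73, 1.74, 1.93, 2.14 and 2.23 in the p53LKO HCC and 0.33, 0.88, 0.92, 0.94 and 0.97 in ICC, a difference of -1.15 ± 0.18 (adjusted p = 0.00077). In both, the lowest tumor was the ICC of mouse 3733. Both fell within the 2-fold limit under other scalings, H2-Bl at -0.99 with quantile normalization and with the detected percentile, and H2-M11 at -0.97 and -0.78. H2-M9 was well above background on all 10 HCC arrays and on 0 of 5 ICC arrays, so that it entered the test through the HCC alone. Its adjusted p of 0.00085 by limma, for the measured means, is therefore no support for a fall. With the processed signal, its level in p53LKO HCC was at least 1.89-fold higher than in ICC. With normexp background correction its difference was -0.46 (adjusted p = 0.087), smaller than that bound and not called. H2-Q7 had levels of 6.75, 6.96, 7.19, 7.19 and 7.57 in the p53f/f HCC, 6.71, 6.72, 6.94, 7.12 and 7.32 in the p53LKO HCC and 5.42, 6.06, 6.07, 6.16 and 6.20 in ICC. It was lower in ICC than in p53LKO HCC by -0.98 ± 0.20 and than in p53f/f HCC by -1.15 ± 0.21, and its probe shares 28 bases with a probe of H2-K2. The difference from p53f/f HCC was -0.74 with quantile normalization and -0.40 (adjusted p = 0.40) with spike-in scaling, neither called. H2-T24 was lower in p53LKO HCC than in p53f/f HCC by -0.77 ± 0.20 (adjusted p = 0.013), and its adjusted p was 0.057 with the row as a block. H2-T23, which encodes Qa-1, a ligand of natural killer cell receptors, and H2-Q8 were lower in ICC than in p53LKO HCC by -0.68 ± 0.20 and -0.78 ± 0.22, with adjusted p of 0.019 and 0.015, both with overlap.

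H2-Ke6, the dehydrogenase gene of the region, had levels of 3.71, 3.72, 4.01, 4.33 and 4.74 in the p53f/f HCC, 4.34, 4.45, 4.67, 4.72 and 5.05 in the p53LKO HCC and 3.18, 3.43, 3.55, 3.65 and 3.95 in ICC. It was lower in ICC than in p53LKO HCC by -1.09 ± 0.19 (adjusted p = 0.0014), without overlap, and overlapped p53f/f HCC. Without the p53LKO HCC of mouse 3976 or the ICC of mouse 3733 the fold fell within the 2-fold limit, as it did with quantile normalization (-0.67) and with the detected percentile (-0.72).

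Probes of 1 gene did not always go together. The brightest probe of H2-M2 was lower in ICC than in p53LKO HCC by -1.05 ± 0.21 and than in p53f/f HCC by -1.04 ± 0.24, while its other probe was higher by 2.90 and 3.42, and both were called, so that no direction can be given for H2-M2. The brightest probe of H2-Q2 differed by 0.38 between the HCC groups and the other by -0.55, neither past the threshold, and in ICC against p53LKO HCC they differed by -0.80 and -1.44. A further probe of Ciita was called lower in p53LKO HCC than in p53f/f HCC at -1.12 (adjusted p = 0.0043), where the brightest differed by 0.26, and was called higher in ICC than in p53LKO HCC by 1.32 (adjusted p = 0.0041), where the brightest differed by 0.79 and was not called.

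Of the 10 class II genes tested, H2-Aa and H2-Oa were called higher in ICC than in p53LKO HCC and 0 lower. H2-Aa, the alpha chain of the I-A molecule, had levels of 1.79, 2.17, 2.49, 2.75 and 2.81 in the p53f/f HCC, 2.18, 2.30, 2.40, 3.13 and 3.84 in the p53LKO HCC and 3.67, 3.86, 4.08, 4.30 and 4.42 in ICC. The HCC groups overlapped, and of the p53LKO HCC that of mouse 3731 alone reached into the ICC range. H2-Aa rose by 1.30 ± 0.32 (adjusted p = 0.0077, 2.46-fold) in ICC against p53LKO HCC and by 1.66 ± 0.24 (adjusted p = 0.00068, 3.17-fold) against p53f/f HCC. Its partner chain H2-Ab1 had levels of 5.30, 5.64, 6.26, 6.42 and 6.89 in the p53f/f HCC, 6.13, 6.52, 6.85, 7.07 and 7.40 in the p53LKO HCC and 7.14, 7.36, 7.40, 7.45 and 7.88 in ICC. It was higher in ICC by 0.65 ± 0.25 (adjusted p = 0.049) and 1.34 ± 0.29 (adjusted p = 0.0061). H2-Eb1, the beta chain of the I-E molecule, had levels of 5.15, 5.43, 5.996, 6.29 and 6.51 in the p53f/f HCC, 5.95, 6.19, 6.20, 6.68 and 7.14 in the p53LKO HCC and 6.88, 6.96, 7.26, 7.44 and 7.63 in ICC. It was higher in ICC by 0.80 ± 0.25 (adjusted p = 0.023) and 1.36 ± 0.28 (adjusted p = 0.0047). All ICC lay above all p53f/f HCC in H2-Aa, H2-Ab1 and H2-Eb1. With the slide as a block, the differences from p53f/f HCC were 1.17 for H2-Ab1 (adjusted p = 0.069) and 1.18 for H2-Eb1 (adjusted p = 0.058), and with the row as a block those from p53LKO HCC were 0.49 (adjusted p = 0.29) and 0.80 (adjusted p = 0.11).

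Cd74, the invariant chain, varied widely within groups. Its levels were 3.80, 4.20, 4.81, 5.52 and 6.24 in the p53f/f HCC, 4.67, 5.87, 5.88, 6.61 and 6.70 in the p53LKO HCC and 5.86, 6.03, 6.15, 6.55 and 7.04 in ICC. All 3 groups overlapped. Cd74 was called higher in ICC than in p53f/f HCC at 1.41 ± 0.44 (adjusted p = 0.029), and the difference from p53LKO HCC was 0.38 ± 0.38 (adjusted p = 0.44). The call was lost with the slide as a block (adjusted p = 0.16), with the mean of the tumors of mouse 3717 (0.060), and without any of 5 single tumors (0.053 to 0.071), which were those of mouse 3681, both of mouse 3717, and the ICC of mice 3976 and 5283. H2-DMa had levels of -0.09, 0.02, 0.03, 0.51 and 1.59 in the p53f/f HCC, 0.18, 1.17, 1.51, 1.79 and 2.54 in the p53LKO HCC and 1.31, 1.34, 1.35, 1.52 and 2.16 in ICC, and H2-DMb1 of 1.29, 1.93, 2.35, 2.73 and 3.33 in the p53f/f HCC, 2.25, 3.0999, 3.59, 3.71 and 3.79 in the p53LKO HCC and 3.27, 3.42, 3.90, 3.96 and 4.39 in ICC. In both the highest p53LKO HCC reached into or above the ICC. H2-DMa and H2-DMb1, the chains of the peptide editor, rose by 1.12 ± 0.33 (adjusted p = 0.022) and 1.46 ± 0.36 (adjusted p = 0.012) in ICC against p53f/f HCC, and with the slide as a block the differences were 1.00 and 1.32 with adjusted p of 0.14 and 0.095. Against p53LKO HCC they differed by 0.10 ± 0.38 and 0.50 ± 0.32. Between the HCC groups, Cd74, H2-DMa and H2-DMb1 differed by 1.03 ± 0.50, 1.03 ± 0.44 and 0.96 ± 0.40, with adjusted p of 0.14, 0.096 and 0.089, and leaving out mouse 3715 all 3 were called higher (adjusted p of 0.044, 0.030 and 0.033).

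H2-Oa, a chain of the H2-O molecule that restrains H2-DM mostly in B cells, had levels of -3.31, -2.81, -2.39, -2.11 and -1.85 in the p53f/f HCC, -3.24, -3.05, -2.57, -2.19 and -1.66 in the p53LKO HCC and -0.98, -0.96, -0.74, -0.27 and 0.31 in ICC. Every ICC lay above every HCC, and 3 of 5 p53LKO HCC were well above background. It rose by 2.01 ± 0.34 (adjusted p = 0.0012, 4.04-fold) against p53LKO HCC and by 1.97 ± 0.33 (adjusted p = 0.0017) against p53f/f HCC, in these fits the largest rise among the brightest probes of the members in either comparison. Alternatives gave values as low as 1.32 and 1.28. H2-Ob, the other chain of H2-O, had levels of -1.87, -1.61, -1.48, -1.43 and -1.42 in the p53f/f HCC, -2.15, -2.04, -1.92, -1.76 and -1.75 in the p53LKO HCC and -1.19, -1.17, -1.07, -0.94 and -0.92 in ICC. It was higher in ICC by 0.87 ± 0.15 (adjusted p = 0.0011) and 0.50 ± 0.15 (adjusted p = 0.028), also without overlap, and a dimmer probe gave 2.29 and 1.30. Ciita had levels of -1.01, -0.81, -0.51, -0.16 and 0.17 in the p53f/f HCC, -0.57, -0.41, -0.26, -0.25 and 0.47 in the p53LKO HCC and -0.39, 0.66, 0.75, 0.92 and 0.98 in ICC. The ICC of mouse 5283 lay among the HCC and the other 4 ICC above them. Ciita was higher in ICC by 0.79 ± 0.29 (adjusted p = 0.044) and 1.05 ± 0.31 (adjusted p = 0.024), and neither passed with a block, by row for the first (adjusted p = 0.11) and by slide for the second (adjusted p = 0.14).

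H2-Eb2, a little-used beta chain gene, was the only class II gene called by its brightest probe between the HCC groups. Its levels were -2.14, -2.01, -1.68, -1.57 and -1.38 in the p53f/f HCC, -4.45, -4.29, -3.92, -3.55 and -2.66 in the p53LKO HCC and -4.94, -2.24, -1.91, -1.54 and -1.38 in ICC. The p53LKO HCC, of which 3 of 5 were well above background, all lay below the p53f/f HCC, and the ICC of mouse 5283 stood apart from the other 4. It fell by 2.02 ± 0.32 (adjusted p = 0.00096, 4.05-fold) in p53LKO HCC, and with normexp background correction the value was -0.93, within the 2-fold limit. In ICC against p53LKO HCC it differed by 1.37 ± 0.63 (adjusted p = 0.098).

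**Figure D3:**
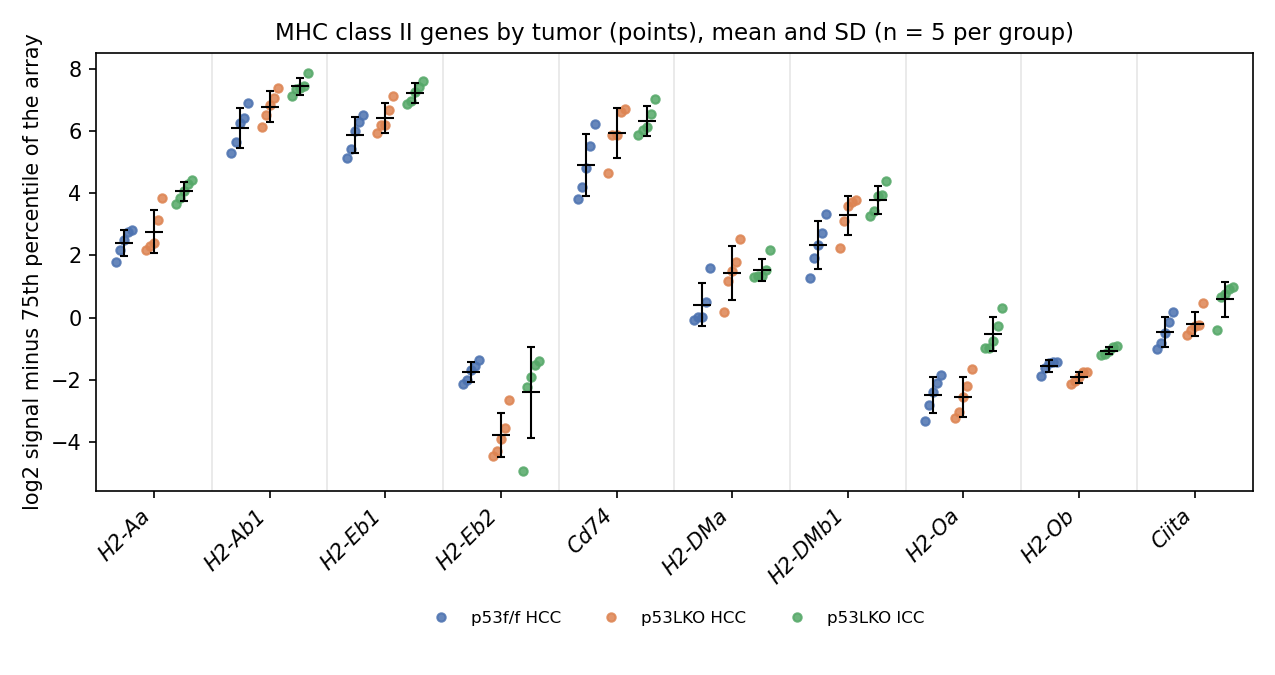
Levels of the 10 class II genes tested in each tumor (points, log2 signal minus the 75th percentile of the array on the y axis) with mean and SD of 5 tumors per group. The ICC points of H2-Oa, between -0.98 and 0.31, lie above all HCC points, while those of Cd74 overlap both HCC groups.

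The 4 p53LKO mice that gave both tumor types allow the 2 to be set side by side within an animal. In 23 of the 31 class I genes tested the ICC was lower than the HCC in each of the 4 mice, and in 0 it was higher in each. Over all genes the ICC was lower in each of these mice in 31.9% and higher in each in 20.6%. The class I genes may not be separate readings, because brightest probes of some share bases, 22 for H2-Q10 and H2-T3 and 19 for H2-K2 and H2-Q7. In 4 of the 10 class II genes, H2-Aa, H2-Oa, H2-Ob and Ciita, the ICC was higher in each of the 4 mice, and in 0 it was lower in each. For B2m the differences were -0.73 in mouse 3731, -1.64 in mouse 3733, -1.16 in mouse 3976 and -1.24 in mouse 5283. For H2-K1 they were -0.67, -1.36, -1.11 and -0.61 in the same order, and for Psmb8 -1.95, -1.52, -1.27 and -0.93. Mouse 3733 had the largest fall of B2m and H2-K1, and mouse 3731 that of Psmb8. For H2-Aa they were 0.02, 1.78, 2.23 and 0.54, for Cd74 -0.84, 1.48, 1.16 and -0.06 and for H2-DMa -1.23, 1.17, 0.37 and 0.01. In these 3 genes mice 3733 and 3976 had higher values in ICC, and mouse 3731, whose HCC had the highest class II mean of the p53LKO HCC, had little rise or a fall. Of the other 7 class II genes tested, mouse 3731 had differences of 1.64 for H2-Eb2, 0.98 for H2-Ob, 0.68 for H2-Oa and 0.19 for Ciita, and of -0.26 for H2-Ab1, -0.27 for H2-Eb1 and -0.36 for H2-DMb1. With the mouse as a random block, 3 genes were called higher and 13 lower, as without it.

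**Figure D4:**
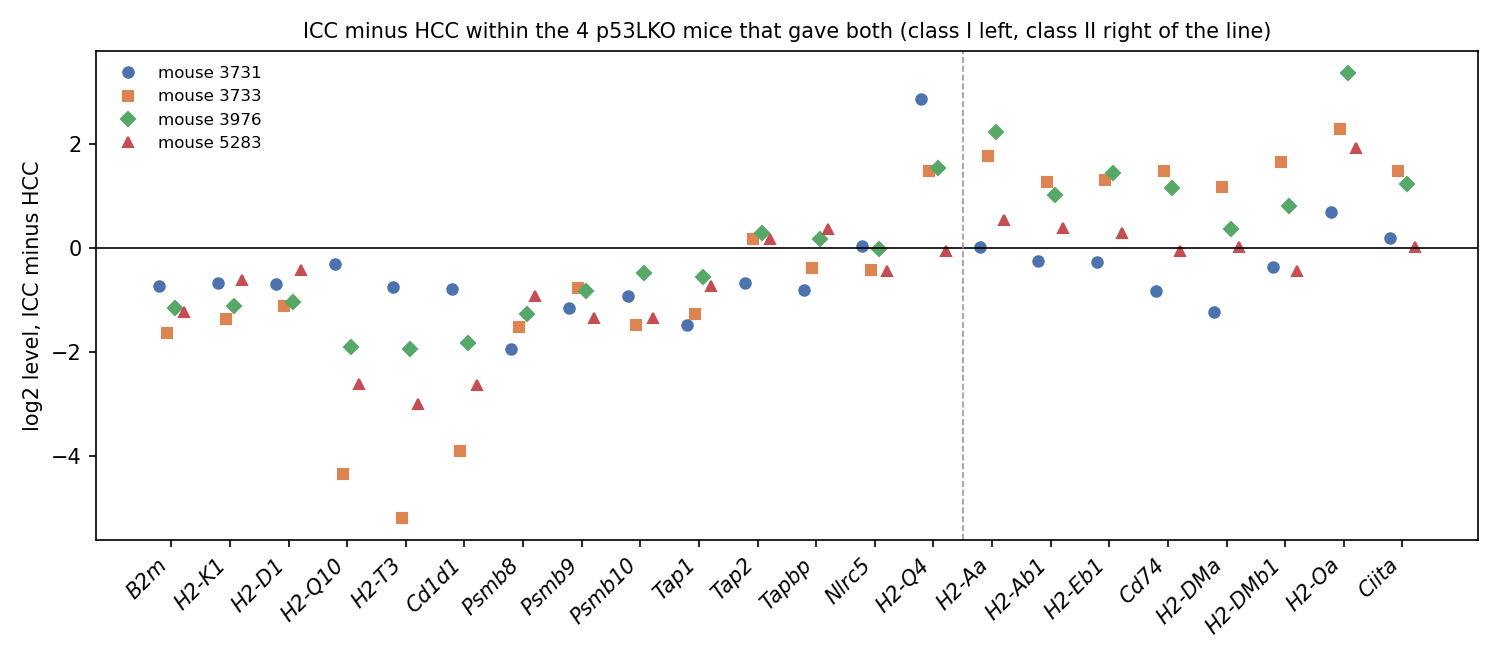
Difference in log2 level between the ICC and the HCC of the same p53LKO mouse (y axis, ICC minus HCC) for 22 genes in each of 4 mice. B2m, H2-K1, H2-D1 and the immunoproteasome genes are below 0 in every mouse, and H2-Aa, H2-Oa and Ciita are above 0 in every mouse.

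Genes that work beside the members were followed as lists, each read by its counts beside the background shares given above. Of 19 other genes of the class I pathway, 0 were called in p53LKO HCC against p53f/f HCC, and 1 was called higher and 4 lower in ICC against p53LKO HCC, with a median of -0.44. The 4 were Psmb5 (-1.25 ± 0.20), the constitutive proteasome subunit that Psmb8 replaces, Psme1 (-1.16 ± 0.22) of the proteasome activator, the protease Ide (-1.17 ± 0.21) and Cd1d2 (-1.23 ± 0.36). Lnpep, an endosomal aminopeptidase, was higher by 1.13 ± 0.21. Against p53f/f HCC, 1 gene was called higher and 1 lower, again Lnpep and Cd1d2.

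Of 27 genes of the interferon response, 1 was called higher and 1 lower in p53LKO HCC against p53f/f HCC, Oasl2 (1.95 ± 0.47) and Gbp6 (-2.92 ± 0.29). In ICC against p53LKO HCC 3 were called higher and 11 lower, with a median of -0.89. Isg15, a ubiquitin-like protein, was lower by -1.64 ± 0.35, the GTPase Igtp by -2.20 ± 0.37 and the chemokine Cxcl10 by -1.64 ± 0.47, while Ifngr1, a chain of the interferon gamma receptor, was higher by 1.00 ± 0.22. Against p53f/f HCC, 1 was called higher and 5 lower. The mean level of the list was 1.64 to 2.58 in p53LKO HCC and 1.07 to 1.76 in ICC, so that it moved with the class I genes and its part in their values was not tested.

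Of 19 other class II pathway genes tested in ICC against p53LKO HCC, 7 were called higher and 0 lower. They included Ctss (1.29 ± 0.24), the protease that removes the invariant chain, Irf8 (1.01 ± 0.27), Cd83 (1.70 ± 0.33), which stabilises class II at the surface, and March1 (1.95 ± 0.60), a ligase that removes it. In p53LKO HCC against p53f/f HCC 0 were called higher and 2 lower, March1 (-2.22 ± 0.33) and Cd80 (-1.89 ± 0.20). Against p53f/f HCC 6 of 20 were called higher and 1, Rfx5, lower.

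Markers of the cells that carry class II and of other cells were read in the same way. Irf8 is on the dendritic cell list as well as the class II pathway list, so these 2 lists are not separate. In ICC against p53LKO HCC, 4 of 10 dendritic cell genes were called higher and 0 lower, among them Itgax (2.11 ± 0.31), Ccr7 (1.81 ± 0.44) and Clec9a (1.91 ± 0.26), and the mean level of the list was -0.25 to 0.75 in HCC and 0.42 to 1.05 in ICC. Of 7 B cell genes 3 were higher and 0 lower, among them Cr2 (5.50 ± 0.61) and Ms4a1 (1.81 ± 0.48), and the mean level over 8 genes was -2.15 to -1.43 in HCC and -0.67 to 0.27 in ICC. Of 14 macrophage and monocyte genes 3 were higher and 0 lower, Lyz2 (2.99 ± 0.34), Itgam (1.56 ± 0.48) and Ccr2 (1.47 ± 0.37), with overlapping mean levels of 1.25 to 2.44 and 1.81 to 2.98. Of 14 T and NK cell genes 4 were higher and 1 lower, with Cd3d at 2.08 ± 0.49 and Cd4 at -2.76 ± 0.42, and mean levels of -0.87 to -0.12 and -0.80 to 0.29. The markers Xcr1, Blk, Cd163 and Ncr1 were well above background on 0 of the 15 arrays. Among tumor cell lists, 0 of 12 hepatocyte genes were higher and 7 lower, with Alb at -1.91 ± 0.48 and Ttr at -1.73 ± 0.38, and 4 of 9 cholangiocyte genes were higher and 1 lower, with Epcam at 7.76 ± 0.60. The part of any of these cells in the class II and class I values was not tested.

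In p53LKO HCC against p53f/f HCC, the lists of dendritic, B, macrophage, T and NK, hepatocyte and cholangiocyte genes had 0, 0, 1, 1, 0 and 0 genes called higher and 2, 2, 1, 1, 2 and 0 called lower. In ICC against p53f/f HCC they had 5, 1, 6, 4, 0 and 4 called higher and 1, 0, 0, 2, 9 and 0 called lower. In the HCC comparison the B cell list was lower in its mean level, at -2.15 to -1.43 against -1.20 to -0.01, with no overlap.

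**Figure D5:**
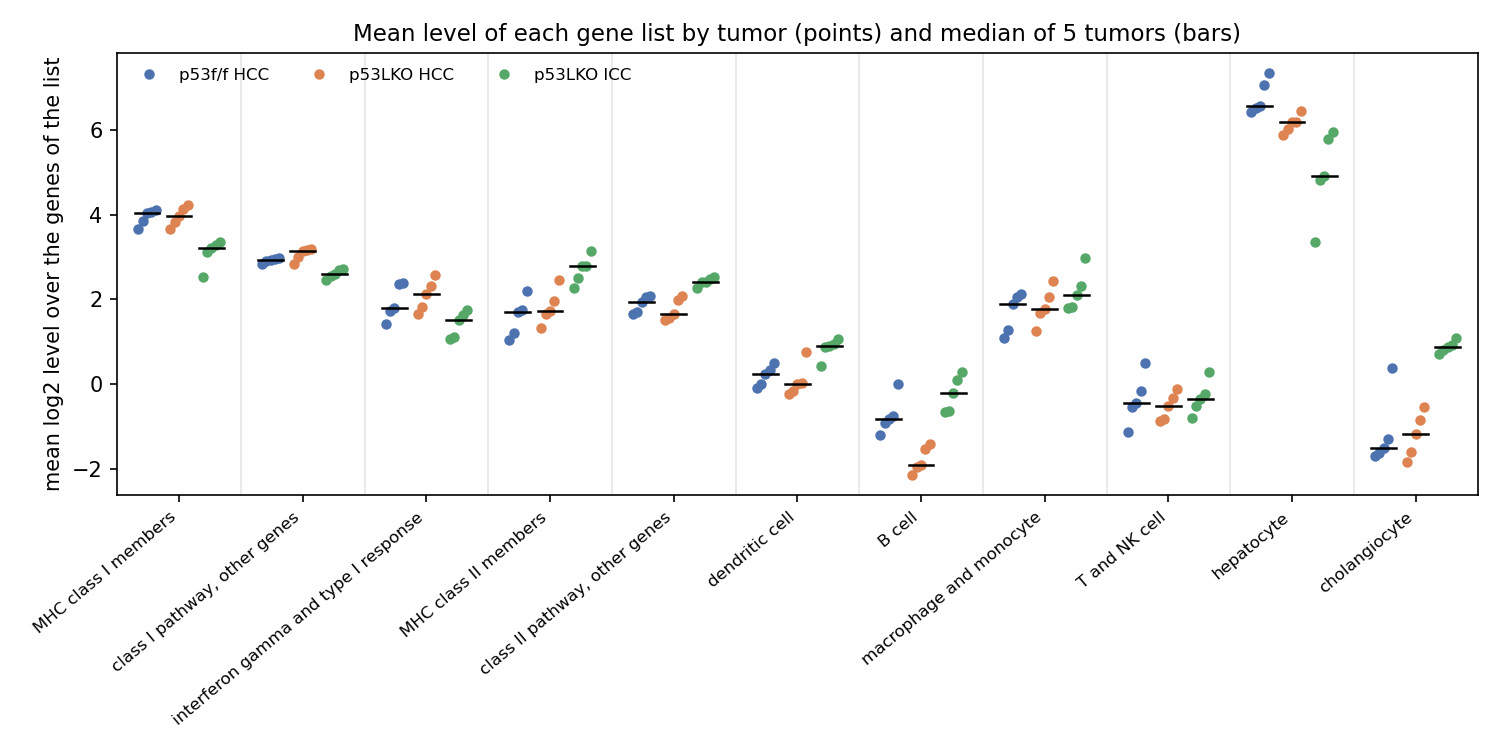
Mean log2 level (y axis) over the genes of each list in every tumor (points) with the median of 5 tumors per group (bars), for the members of each class, the other genes of each pathway, the interferon response and cell type markers. The class I mean is lower in ICC (2.52 to 3.35) than in both HCC groups, and the class II mean of ICC (2.26 to 3.15) lies above that of the p53f/f HCC and overlaps that of the p53LKO HCC.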

How the data were processed

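RNA of 15 liver tumors, 5 per group, was measured on 1-colour Agilent arrays. The deposited scanner files hold the processed signal intensity of each probe, which the authors extracted with Feature Extraction 10.7.3.1 (per the submitters' processing notes). The authors' tables of log2 values, normalized before they were deposited, correlated with the scanner values on every array at r of at least 0.9999 and served only as an alternative for the HCC comparison. The log2 of each processed signal was taken relative to the array's 75th percentile. Probes were tested where at least 3 arrays of either group had them well above background, and limma 3.58.1 in R 4.3.3 was fitted over all such probes, with Benjamini-Hochberg adjustment. Figures were drawn with matplotlib. Arrays, unlike counts, have no read depth, and their number limits the precision.

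Groups followed the labels, 1 tumor was 1 replicate, and mouse numbers give the pairing of 4 mice. Deviations of same-mouse tumors from their group means correlated at -0.14 to 0.07, and those of other pairs at -0.26 to 0.28. No 2 arrays correlated above 0.979. Each gene is given by its brightest probe. Genes named are all those called, the classical chains, Cd74, H2-Q10, the immunoproteasome, transport and loading genes, the transactivators and, of each list, up to 4 called genes of the highest signal. H2-M3, H2-Ob, H2-Q2, H2-Q8, H2-T23, H2-T24 and Erap1 were added after their values were seen. The members and gene lists were chosen with earlier results of these data known. Alternatives covered background correction, scaling, filters, slide, row and mouse as blocks, the methods' t-test and each tumor left out, and slides 1 and 2 alone were added after the data had been seen. The fit was tested on simulated data. The value of 1 called list gene is not reported here.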

Additional observations from a re-analysis of the deposited data

Results flagged for a closer look

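In 9 of the 126 sets of 5 tumors examined (42 genes in 3 groups), an extreme tumor stood apart, its gap to the nearest tumor taking over 0.71 of the range of the group (Dixon's critical value), where chance gives about 6. In ICC, the tumor of mouse 3733 was low in 4 class I genes, H2-Q7 (5.42), H2-Bl (2.04), H2-M11 (0.33) and H2-K2 (5.55), whereas the other ICC lay at 6.06 to 6.20, 2.93 to 3.29, 0.88 to 0.97 and 6.30 to 6.41. The same tumor had the lowest hepatocyte level, 3.37, and whether that bears on these genes was not tested. The ICC of mouse 5283 was low in the class II genes H2-Eb2 (-4.94, others -2.24 to -1.38) and Ciita (-0.39, others 0.66 to 0.98). The ICC of mouse 3976 was high in H2-DMa (2.16, others 1.31 to 1.52). In p53LKO HCC, H2-Q5 was high in mouse 3976 (5.70, others 3.30 to 3.93) and H2-Q1 was low in mouse 3975 (0.22, others 2.36 to 2.69).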

How the results depend on the processing

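Counts are given as genes called higher, then lower. In p53LKO HCC against p53f/f HCC (0 and 2), they were 2 and 1 with normexp, 0 and 5 with the percentile over probes detected on every array, 21 and 2 with spike-in scaling, 0 and 1 with the filter on all arrays of both groups, 1 and 3 with the slide as a block, 3 and 5 with no fold limit and 0 and 0 on slide 2 alone (3 and 3 at an unadjusted p under 0.05). Leaving out 1 tumor gave 0 to 5 higher, the 5 without mouse 3715, and 2 to 3 lower. In ICC against p53LKO HCC (3 and 13), they were 5 and 7 with quantile normalization, 7 and 7 with the detected percentile, 6 and 17 with every probe counted, 8 and 22 with no fold limit and 0 and 0 on slide 1 alone (3 and 10 at an unadjusted p under 0.05). Leaving out 1 tumor gave 2 to 5 higher, the 5 without the ICC of mouse 5283, and 10 to 18 lower. With the mouse as replicate block, from the mouse numbers, 3 and 13 were called. In ICC against p53f/f HCC (8 and 12), they were 13 and 12 with no filter, 2 and 10 with the slide as a block, 12 and 4 with spike-in scaling and 0 and 0 on slide 1 or slide 2 alone. Leaving out 1 tumor gave 5 to 9 higher, the 5 without mouse 3681, the first tumor of mouse 3717 or the ICC of mouse 3976, and 10 to 13 lower. The single slides that gave 0 and 0 held 1 array of a group, so their counts say nothing of stability. The causes were not tested.

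By their brightest probe, genes called in the comparisons above kept their direction in all alternatives run, while the other probe of H2-M2 went the opposite way (2.90 and 3.42 in ICC against p53LKO HCC and p53f/f HCC). Of those not called, differences between the HCC groups turned for H2-D1 (-0.036 on slide 2), B2m (-0.16 with the detected percentile, -0.0091 to 0.16 leaving out 1 tumor), Psmb9 (-0.018 with quantile, -0.036 with the detected percentile, -0.065 with the row as a block or the upper rows alone) and Nlrc5 (0.50 with spike-ins, 0.10 on slide 1). Between ICC and p53LKO HCC they turned for Tapbp (0.26 with quantile, 0.19 with the detected percentile, 0.036 on slide 2), Tap2 (0.49, 0.35 and 0.29 in that order, 0.16 without the lower-row HCC, -0.20 to 0.11 leaving out 1 tumor), Nlrc5 (0.18, 0.34, 0.056 and 0.040 in that order, -0.13 to 0.10 leaving out 1 tumor), Cd74 (-0.38 on slide 1), H2-DMa (-0.11 with the row as a block or the lower rows alone, -0.34 on slide 1, -0.22 to 0.37 leaving out 1 tumor) and H2-DMb1 (-0.23 on slide 1). Against p53f/f HCC they turned for H2-K1 (0.32 with quantile, 0.50 with spike-ins) and H2-D1 (0.080 and 0.43). Dim genes such as H2-Eb2, H2-Oa and H2-M9 lay near background in at least 1 group, which limits their folds.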
